A study of Mus musculus with 10 samples.

Results

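The genes described here are 9 non-globin genes of the red blood cell lineage, chosen by symbol from the 38720 gene symbols counted in mouse tail buds: the transcription regulators Gata1, Klf1, Gfi1b, Tal1 and Hemgn, the erythropoietin receptor Epor, the membrane proteins Slc4a1 and Rhd, and the heme enzyme Alas2. All 9 were in the count table and all 9 passed the filter on low counts, which left 16340 genes. RNA sequencing was done on the microdissected tail bud, the posterior end of the embryo, of embryos at day 12.5, for a study of the Lin28/let-7 pathway in the growth of the tail end of the body. The Lin28a-induced group (replicates 2, 3, 4 and 5) carried TRE-Lin28a, a transgene that answers to doxycycline, together with RLSL-rtTA, a transactivator held silent until Cre acts, and FoxD1-Cre, which supplies Cre in cells that have used the Foxd1 promoter, and was treated with doxycycline. The no-Cre group (replicates 6, 7 and 8) carried TRE-Lin28a and RLSL-rtTA without FoxD1-Cre and had doxycycline too. For the wild-type group (replicates 1, 2 and 3) the labels name no transgene and no doxycycline, so the transgenes, the doxycycline and any difference in strain or collection cannot be told apart when the other groups are set against it. The labels do not say that each library came from a separate embryo, so the p-values measure the spread between these libraries, part of which may be technical.

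Red blood cells of the early mouse embryo arise in the yolk sac as primitive erythroid cells, which enter the circulation while still nucleated and mature there, and a later definitive wave is made in the fetal liver. In both waves GATA1 and TAL1 bind DNA together at erythroid genes, KLF1 binds CACCC-type sequences, and GFI1B represses genes of other fates. Their targets include the membrane proteins, the heme enzymes and the globins that fill the mature cell. The tail bud does not make red blood cells, and blood reaches it through its vessels. In libraries of whole tissue such as these, fewer cells of a type and less RNA per cell cannot be told apart.

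The 10 libraries held 21762668 to 39517946 counts. Lin28a reached 605 to 750 CPM (counts scaled by library size and TMM factor) in the 4 Lin28a-induced libraries, against 2.64 to 5.03 CPM in the 3 no-Cre and 4.45 to 6.16 CPM in the 3 wild-type libraries, in the direction the labels give. The wild-type libraries stood apart: the first principal component of all tested genes held 68.2% of the variance and separated them from the other 7. Of the 16340 genes, 49.3% passed the threshold between the Lin28a-induced and wild-type groups, and 42.5% between the no-Cre and wild-type groups, against 2.91% for Lin28a-induced against no-Cre (edgeR's quasi-likelihood test, Benjamini-Hochberg adjusted p under 0.05). Xist and Ddx3y marked 2 libraries as female, replicate 5 of the Lin28a-induced and replicate 7 of the no-Cre group, and the other 8 as male. Tail bud genes were present. Of 12 on a list of them, 4 were higher and 0 lower for Lin28a-induced over wild type. For no-Cre over wild type, 5 were higher and 0 lower. Of all tested genes, 24.3% were higher and 25.0% lower in the first comparison, and 21.0% higher and 21.4% lower in the second. The listed genes summed to 1400 to 1842 CPM in the Lin28a-induced, 1452 to 1520 CPM in the no-Cre and 762 to 1450 CPM in the wild-type libraries. Wild-type replicate 2 was the lowest of its group for every listed gene but Cdx2. It held T at 127 CPM, against 307 and 334 CPM in wild-type replicates 1 and 3. Whether its tissue make-up differed was not tested.

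In GENCODE M21 on GRCm38 (mm10), Gata1 lies on the reverse strand at chrX:7959260-7978071 and Alas2 on the forward strand at chrX:150547375-150570638. Tal1 (chr4:115056426-115071755, forward), Hemgn (chr4:46393989-46413506, reverse) and Rhd (chr4:134864536-134896172, forward) share chromosome 4. Klf1 lies at chr8:84901928-84905291 (forward), Gfi1b at chr2:28609450-28621982 (reverse), Epor at chr9:21958897-21963506 (reverse) and Slc4a1 at chr11:102348824-102366203 (reverse). Alas2 alone overlaps other annotated genes, Apex2 and Mir3620, which lie on the opposite strand. The library kit keeps strand, but the strand setting of the counting is not given in the sources used here. Of their exon sequence cut into 32-base words, 8 of the 9 genes shared no word with another annotated gene and Hemgn shared 0.364% of its words.

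RefSeq promoter windows (GRCm38.p6), which run from 250 bases before a transcription start to 50 bases after it, were matched by symbol for 8 of the 9 genes, with 9 windows in all because Tal1 has a pair of starts. Slc4a1 was not matched. The windows of Klf1, Hemgn, Rhd and Alas2 are printed because the first 3 genes differed strongly between the groups and Alas2 did not pass the test in any comparison. Each is written 5′ to 3′ on the strand of its gene, with GATA sites in capitals (the letters AGATA or TGATA followed by A or G, on either strand). The windows lie at chr8:84901732-84902031 (forward strand) for Klf1, chr4:46404134-46404433 (reverse strand) for Hemgn, chr4:134864286-134864585 (forward strand) for Rhd and chrX:150547167-150547466 (forward strand) for Alas2.
Klf1: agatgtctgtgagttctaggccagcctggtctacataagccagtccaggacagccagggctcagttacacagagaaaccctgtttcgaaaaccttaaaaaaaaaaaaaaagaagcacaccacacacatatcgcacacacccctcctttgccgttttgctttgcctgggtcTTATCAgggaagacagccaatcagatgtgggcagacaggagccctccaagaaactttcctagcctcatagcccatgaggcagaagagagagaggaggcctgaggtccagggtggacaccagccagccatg
Hemgn: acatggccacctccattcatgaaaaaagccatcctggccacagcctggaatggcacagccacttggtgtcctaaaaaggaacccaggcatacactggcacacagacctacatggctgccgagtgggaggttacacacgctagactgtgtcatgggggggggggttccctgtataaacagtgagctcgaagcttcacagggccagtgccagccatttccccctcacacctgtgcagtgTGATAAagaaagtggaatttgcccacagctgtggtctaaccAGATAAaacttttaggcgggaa
Rhd: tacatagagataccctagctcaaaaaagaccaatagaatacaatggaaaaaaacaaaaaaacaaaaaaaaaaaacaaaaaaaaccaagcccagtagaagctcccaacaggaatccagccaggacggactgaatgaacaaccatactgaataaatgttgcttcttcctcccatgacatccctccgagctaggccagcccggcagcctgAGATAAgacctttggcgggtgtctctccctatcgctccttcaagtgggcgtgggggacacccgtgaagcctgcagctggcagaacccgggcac
Alas2: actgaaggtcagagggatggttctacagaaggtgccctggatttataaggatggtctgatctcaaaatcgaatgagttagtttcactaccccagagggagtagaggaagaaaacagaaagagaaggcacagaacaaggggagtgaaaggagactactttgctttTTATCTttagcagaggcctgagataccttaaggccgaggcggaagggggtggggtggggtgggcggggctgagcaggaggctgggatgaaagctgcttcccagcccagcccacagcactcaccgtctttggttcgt

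Counting the start base as position 1, the GATA site begins at position -80 in Klf1, -43 in Rhd and -86 in Alas2, and Hemgn holds one at -13 and another at 29. Among the windows not printed, the site begins at -54 in Epor, -120 in Gfi1b and -205 in Tal1, and the Gata1 window holds none of these letters. A GATA site was thus present in 7 of the 8 genes, and in 29.8% of all 32851 mouse promoter windows of the same length. The E-box letters CANNTG, the type of sequence that TAL1 binds with its partners, were present in 7 of the 8 genes and in 72.3% of all windows. Some but not all CACCC-type sequences of KLF1 fall under the letters CCNCNCCC, which also take in other C-rich letters. The Klf1 window holds CACCC but no CCNCNCCC match, and the Hemgn matches lie in a run of G. On either strand, CCNCNCCC was present in 7 of the 8 genes and in 49.5% of all windows. These counts take a gene with several windows as holding a motif when any window does, and the counts over the 9 single windows are 7 for each kind. GATA and E-box letters stood together in 6 of the 9 windows and in 22.9% of all windows, and all 3 kinds in 4 of the 9 and in 7.53% of all. Tal1 holds GATA and E-box letters in one of its windows and CCNCNCCC in the other. No GATA site overlapped an E-box or a CCNCNCCC match, and 1 E-box overlapped a CCNCNCCC match, in Rhd. The Alas2 window differs from those of Klf1, Hemgn and Rhd in holding no E-box letters. These matches describe the letters of the windows and were not tested as binding sites.

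Gata1, Klf1, Gfi1b, Hemgn, Rhd and Slc4a1 were all higher in the Lin28a-induced and in the no-Cre libraries than in wild type, by factors of 3.44 (Slc4a1) to 13.8 (Hemgn) in the Lin28a-induced and of 5.06 (Slc4a1) to 19.2 (Hemgn) in the no-Cre libraries. Tal1 and Epor were higher by smaller factors, and Alas2 did not pass the test. Set against the no-Cre libraries, the Lin28a-induced ones passed for none of the 9 genes. The accounts below take the genes by role, and log2 fold changes, their standard errors (SE) and adjusted p-values come from edgeR with the adjustment over all 16340 genes.

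**Figure D1:**
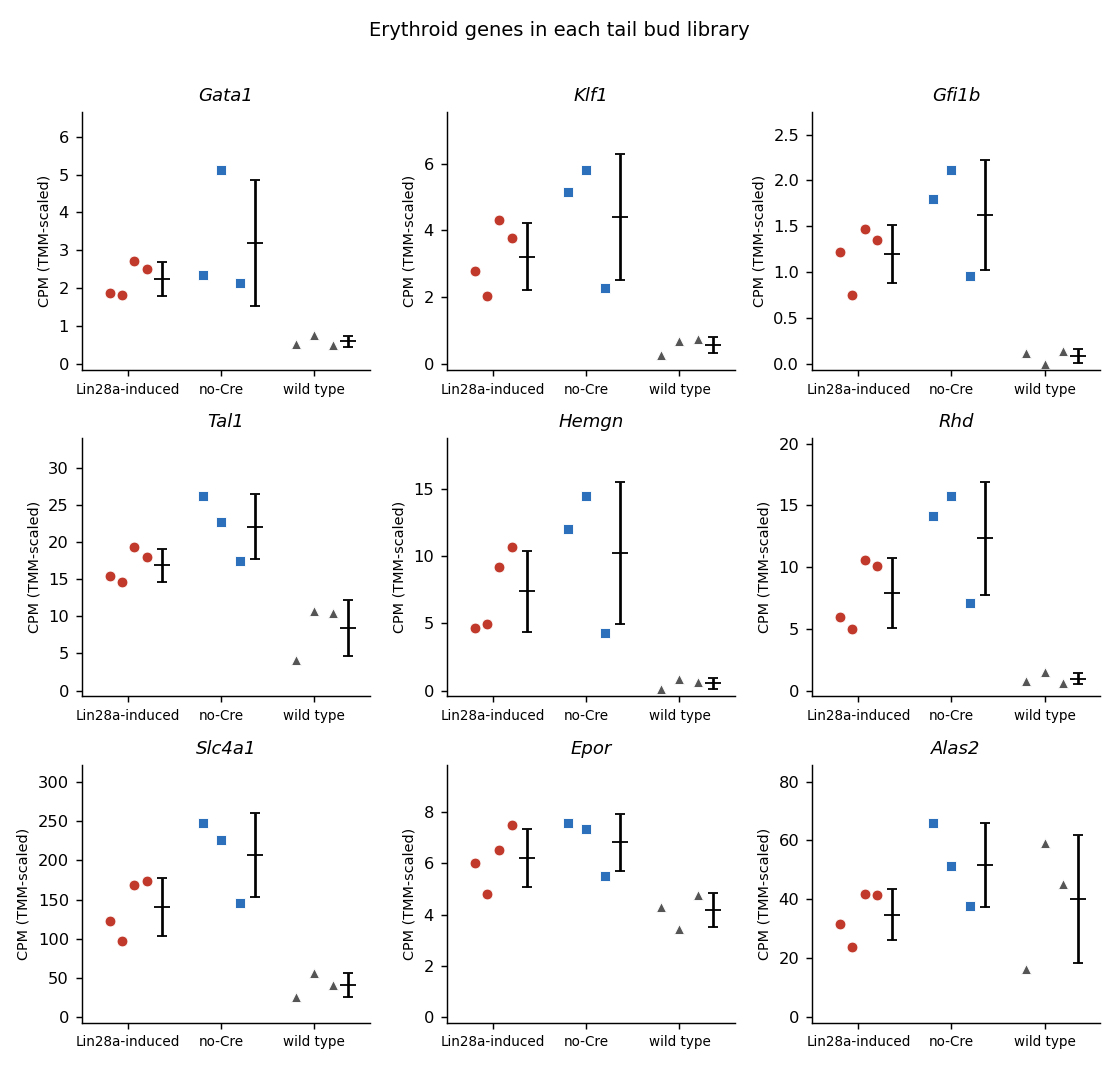
Scaled counts (CPM, linear axis from 0, 1 panel per gene) of the 9 genes in every library, Lin28a-induced at the left, then no-Cre, then wild type, with the mean and SD of each group drawn in black beside its points. The wild-type points lie below all others for 8 genes and among them for Alas2, and the Lin28a-induced and no-Cre points overlap for every gene. Gfi1b in wild-type replicate 2 is 0.

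Gata1 encodes the zinc finger factor without which red cell precursors die before they mature. It measured 1.88, 1.83, 2.73 and 2.52 CPM in Lin28a-induced replicates 2 to 5, 2.35, 5.12 and 2.13 CPM in no-Cre replicates 6 to 8, and 0.517, 0.771 and 0.505 CPM in wild-type replicates 1 to 3. Every wild-type library lay below every other one, and no-Cre replicate 7 was the highest of all. The log2 fold change was 1.90 ± 0.37 (SE, adjusted p = 0.000804) for Lin28a-induced over wild type and 2.41 ± 0.38 (adjusted p = 0.000225) for no-Cre over wild type. For Lin28a-induced over no-Cre it was -0.51 ± 0.29 (adjusted p = 0.421), and without no-Cre replicate 7 it was -0.00083.

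Klf1 encodes the CACCC-binding activator of globin and red cell membrane genes. It measured 2.77, 2.03, 4.30 and 3.76 CPM in the Lin28a-induced libraries, 5.16, 5.81 and 2.27 CPM in the no-Cre libraries and 0.278, 0.690 and 0.735 CPM in the wild-type libraries. The wild-type libraries, at 7 to 17 counts each, lay below all 7 others, and the other groups overlapped. Over wild type its log2 fold change was 2.51 ± 0.44 (adjusted p = 0.000557) for Lin28a-induced and 2.97 ± 0.45 (adjusted p = 0.000277) for no-Cre.

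Gfi1b encodes a repressor with zinc fingers needed for red cells and platelets. It was the lowest of the 9 per length of transcript in each group. It measured 1.22, 0.755, 1.47 and 1.35 CPM in the Lin28a-induced libraries, 1.80, 2.11 and 0.961 CPM in the no-Cre libraries, and 0.119, 0 and 0.138 CPM in the wild-type libraries. The wild-type values rest on 3, 0 and 3 counts, 6 in all, with a 95% exact Poisson interval of 2.20 to 13.1 counts that covers counting error only, against 163 counts over the Lin28a-induced and 168 over the no-Cre libraries. The fitted log2 fold change over wild type was 3.77 ± 0.58 (adjusted p = 0.000145) for Lin28a-induced and 4.22 ± 0.59 (adjusted p = 8.81e-05) for no-Cre. Without wild-type replicate 2, the library at 0, the Lin28a-induced value was 3.19.

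Hemgn encodes hemogen, a nuclear protein of blood precursors that GATA1 activates. It measured 4.65, 4.97, 9.22 and 10.7 CPM in the Lin28a-induced libraries, 12.02, 14.5 and 4.32 CPM in the no-Cre libraries and 0.0795, 0.892 and 0.643 CPM in the wild-type libraries. The wild-type libraries held 2, 22 and 14 counts, all below the others, and wild-type replicate 1 was the lowest. Its log2 fold change over wild type was 3.79 ± 0.73 (adjusted p = 0.00277) for Lin28a-induced and 4.27 ± 0.74 (adjusted p = 0.00218) for no-Cre, with the widest SE of the 9. Without wild-type replicate 2 these values were 4.42 and 4.90. When each library was left out in turn, they ran from 3.26 to 4.42 for Lin28a-induced (edgeR adjusted p up to 0.0141). For no-Cre they ran from 3.74 to 4.90 (edgeR adjusted p up to 0.0112).

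Tal1 encodes a basic helix-loop-helix factor that starts blood formation and is also made by endothelial cells. It measured 15.4, 14.7, 19.3 and 18.0 CPM in the Lin28a-induced libraries, 26.1, 22.6 and 17.4 CPM in the no-Cre libraries and 4.13, 10.7 and 10.4 CPM in the wild-type libraries. No wild-type library reached the lowest of the others. Its log2 fold change was 1.01 ± 0.29 (adjusted p = 0.0193) for Lin28a-induced over wild type and 1.40 ± 0.31 (adjusted p = 0.00623) for no-Cre over wild type. All 12 tested endothelial genes passed as higher over wild type in both groups, where 24.3% of all genes did for Lin28a-induced and 21.0% for no-Cre, and their summed level was 354 to 480 CPM in the Lin28a-induced, 368 to 405 CPM in the no-Cre and 91.6 to 181 CPM in the wild-type libraries. Tal1 was 3.74 to 4.54% of that endothelial sum in the Lin28a-induced libraries, 4.31 to 6.59% in the no-Cre libraries and 3.32 to 11.7% in the wild-type libraries, which overlap. The part of endothelial cells in the Tal1 difference was not tested.

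Epor encodes the receptor for erythropoietin, the hormone that keeps red cell precursors alive. It measured 6.004, 4.79, 6.52 and 7.52 CPM in the Lin28a-induced libraries, 7.59, 7.36 and 5.53 CPM in the no-Cre libraries, and 4.29, 3.45 and 4.77 CPM in the wild-type libraries. The wild-type libraries were lowest, with wild-type replicate 3 just under Lin28a-induced replicate 3. The log2 fold change over wild type was 0.58 ± 0.18 (adjusted p = 0.0184) for Lin28a-induced and 0.71 ± 0.19 (adjusted p = 0.00929) for no-Cre. The first of these calls was lost without Lin28a-induced replicate 5 (log2 fold change 0.47, adjusted p = 0.0585) and without wild-type replicate 2 (0.45, adjusted p = 0.0641). Over the leave-one-out settings its adjusted p ran from 0.00832 to 0.0641.

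Slc4a1 encodes band 3, the anion exchanger and main anchor of the skeleton in the red cell membrane. It measured 122, 96.7, 169 and 174 CPM in the Lin28a-induced libraries, 248, 226 and 146 CPM in the no-Cre libraries, and 25.2, 56.4 and 41.0 CPM in the wild-type libraries. All 7 libraries with transgenes lay above all 3 wild-type libraries. Over wild type the log2 fold change of Slc4a1 was 1.78 ± 0.35 (adjusted p = 0.00427) for Lin28a-induced and 2.34 ± 0.37 (adjusted p = 0.00197) for no-Cre.

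Rhd encodes a membrane protein of the Rh family, which sits with band 3 and ankyrin in the red cell surface. It measured 5.97, 4.99, 10.6 and 10.1 CPM in the Lin28a-induced libraries, 14.2, 15.7 and 7.10 CPM in the no-Cre libraries, and 0.795, 1.501 and 0.597 CPM in the wild-type libraries. The wild-type libraries, with 13 to 37 counts, again lay below all others. Over wild type the log2 fold change of Rhd was 3.02 ± 0.47 (adjusted p = 0.00055) for Lin28a-induced and 3.66 ± 0.48 (adjusted p = 0.000276) for no-Cre, so Rhd differed more than Slc4a1 in each comparison, a difference that was not tested.

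Alas2 encodes the red cell form of the first enzyme of heme synthesis. It measured 31.5, 23.8, 41.9 and 41.5 CPM in the Lin28a-induced libraries, 65.9, 51.2 and 37.6 CPM in the no-Cre libraries, and 16.5, 59.1 and 45.1 CPM in the wild-type libraries. The 3 groups overlapped, and wild-type replicate 1 was the lowest of the 10 libraries while replicates 2 and 3 lay among the no-Cre ones. The log2 fold change over wild type was -0.21 ± 0.43 (95% interval -1.21 to 0.79, adjusted p = 0.714) for Lin28a-induced and 0.36 ± 0.46 (95% interval -0.70 to 1.43, adjusted p = 0.557) for no-Cre. The first value was 0.18 without wild-type replicate 2, and the second was -0.0083 without wild-type replicate 1. The intervals reach past -1 in the first comparison and past 1 in the second, so these libraries do not show that Alas2 was equal between the groups.

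Over wild type, 8 of the 9 genes passed the threshold as higher in the Lin28a-induced libraries and 0 as lower, where 24.3% of all tested genes were higher and 25.0% lower. The median log2 fold change of the 9 genes was 1.90, against -0.02 for all genes, and the 8 genes had libraries that did not overlap, as had 24.7% of all genes in that direction. In the no-Cre libraries the same 8 genes passed as higher and 0 as lower, where 21.0% of all genes were higher and 21.4% lower, with a median of 2.41 against -0.02, and the 8 did not overlap, as had 25.8% of all genes. Both comparisons rest on the same 3 wild-type libraries. A log2 fold change of at least 2 with a call was seen in 4 of the 9 genes for Lin28a-induced (Klf1, Gfi1b, Hemgn and Rhd), where 1.25% of all genes reached it, and in 6 for no-Cre (with Gata1 and Slc4a1), where 1.46% did.

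Lin28a-induced against no-Cre gave negative log2 fold changes for all 9 genes with TMM factors, 8 of which turned positive with library sizes set to globin counts, and none passed the threshold. Across all genes, 2.91% passed (1.76% higher and 1.15% lower), 16.3% had an unadjusted p under 0.05, and 50.3% had a log2 fold change under 0. Of the 9 genes, 0 had an unadjusted p under 0.05 in edgeR, and DESeq2 and limma-voom also called 0. The log2 fold changes ran from -0.64 ± 0.35 (Rhd, adjusted p = 0.414) to -0.14 ± 0.17 (Epor, adjusted p = 0.771), with a median of -0.48, against -0.00 for all genes. The lowest end of the 95% intervals was -1.61 (Hemgn) and the highest was 0.66 (Hemgn). In all 9 genes no-Cre replicate 8 was the lowest of its group, and it lay within the range of the Lin28a-induced libraries for 8 of them and below it for Hemgn. The libraries of both groups overlapped for all 9 genes, where 23.4% of all genes did not overlap. Summed globin counts moved the same way, at 3626 to 5928 CPM in the Lin28a-induced and 5468 to 9238 CPM in the no-Cre libraries. With library sizes set to those globin counts, the log2 fold changes of 8 of the 9 genes were positive, at 0.01 (Alas2) to 0.44 (Epor), Rhd was at -0.06, and none passed. On that scale the median of all genes was 0.58, and 0.0184% of all genes passed as higher and 0 as lower.

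**Figure D2:**
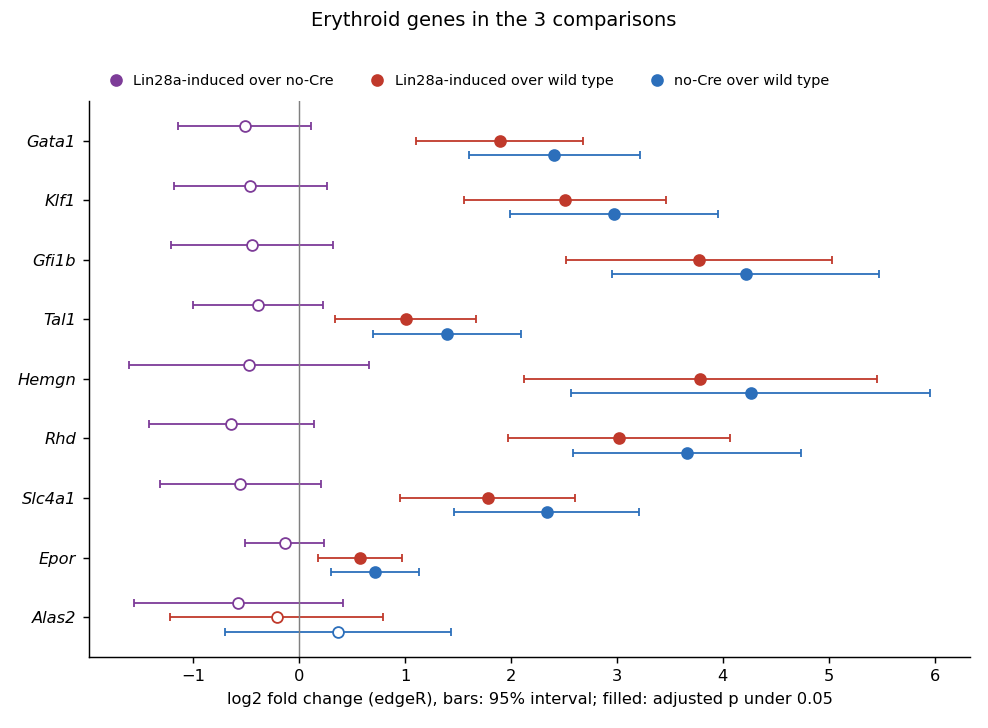
Fitted log2 fold changes of the 9 genes in the 3 comparisons, with bars for the 95% intervals and filled points for an adjusted p under 0.05. On this TMM scale all 9 lie below 0 for Lin28a-induced over no-Cre with intervals that cross 0 (8 turn positive with globin-scaled library sizes), and 8 lie above 0 with intervals clear of it in both comparisons with wild type, where the interval of Alas2 crosses 0.

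Alas2 followed the globins from library to library. Set per 100000 counts of the 8 globin genes in the table, Alas2 gave 664, 657, 707 and 727 counts in the Lin28a-induced libraries, 714, 650 and 688 in the no-Cre libraries, and 606, 741 and 744 in the wild-type libraries. The mean over the 10 libraries was 690 with a coefficient of variation of 6.52%, and the highest library was 1.23 times the lowest, while in CPM the highest was 4.01 times the lowest. Per 100000 counts of the embryonic globins alone, Alas2 gave 729 to 798 in the Lin28a-induced and 713 to 790 in the no-Cre libraries. The wild-type libraries gave 713, 903 and 900 on that scale, so wild-type replicates 2 and 3 lay above all others. The Pearson correlation of Alas2 with summed globin, both as log2 CPM, was 0.993 over the 10 libraries and 0.996 after group means were subtracted. Both values of a library share its depth and its blood cells, so the correlation is a description. In CPM summed globin was 2718 to 7974 in the wild-type libraries, a range that holds those of the Lin28a-induced libraries and overlaps the no-Cre ones.

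Of the other genes, 7 had a lower ratio to globin in every wild-type library than in any other library, and Epor did not. Of all tested genes, 3.98% lay without overlap in that direction for Lin28a-induced over wild type and 2.18% for no-Cre over wild type. Slc4a1 gave 2572, 2666, 2855 and 3047 counts per 100000 globin counts in the Lin28a-induced libraries, 2685, 2866 and 2668 in the no-Cre libraries, and 926, 707 and 677 in the wild-type libraries. The groups with transgenes overlapped and the wild-type libraries lay far below, although their summed globin overlapped that of both other groups. Slc4a1 counts per Alas2 count were 3.87, 4.05, 4.04 and 4.19 in the Lin28a-induced libraries, 3.76, 4.41 and 3.88 in the no-Cre libraries and 1.53, 0.954 and 0.909 in the wild-type libraries. An exact two-sided permutation test of that ratio gave p = 0.971 for Lin28a-induced against no-Cre and p = 0.0571 for Lin28a-induced against wild type, the smallest that 35 splits allow. No-Cre against wild type gave an exact p = 0.1, the smallest of 20 splits. No comparison with wild type can thus reach 0.05 in this form of the test, and other two-sided forms were not run.

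Klf1 gave 58.3, 56.1, 72.5 and 65.9 counts per 100000 globin counts in the Lin28a-induced libraries, 55.9, 73.8 and 41.4 in the no-Cre libraries and 10.2, 8.65 and 12.1 in the wild-type libraries. Hemgn gave 97.9, 137, 156 and 188 in the Lin28a-induced libraries, 130, 184 and 79.1 in the no-Cre libraries and 2.93, 11.2 and 10.6 in the wild-type libraries. For these genes, as for Rhd, Gata1, Gfi1b and Tal1, every wild-type library lay below every other. Rhd gave 126 to 179 in the Lin28a-induced, 130 to 200 in the no-Cre and 9.85 to 29.3 in the wild-type libraries. Gata1 gave 39.6 to 50.5 in the Lin28a-induced, 25.4 to 65.1 in the no-Cre and 8.33 to 19.0 in the wild-type libraries. The Gfi1b values were 20.8 to 25.7, 17.6 to 26.9 and 0 to 4.39 in the Lin28a-induced, no-Cre and wild-type libraries. Tal1 gave 315 to 404 in the Lin28a-induced, 283 to 319 in the no-Cre and 135 to 171 in the wild-type libraries. Epor was the exception, at 110 to 132 in the Lin28a-induced, 82.1 to 101 in the no-Cre and 43.2 to 158 in the wild-type libraries, where the wild-type values spanned all the others. The 9 genes together gave 40.3 to 47.2 counts per 1000 globin counts in the Lin28a-induced, 40.8 to 44.5 in the no-Cre and 16.7 to 19.1 in the wild-type libraries. Slc4a1 was 62.6 to 65.4% of these summed counts in the libraries with transgenes and 39.5 to 48.5% in wild type. Alas2 was 14.6 to 17.2% and 31.7 to 44.3%, so the sum mostly reflects Slc4a1 and Alas2.

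**Figure D3:**
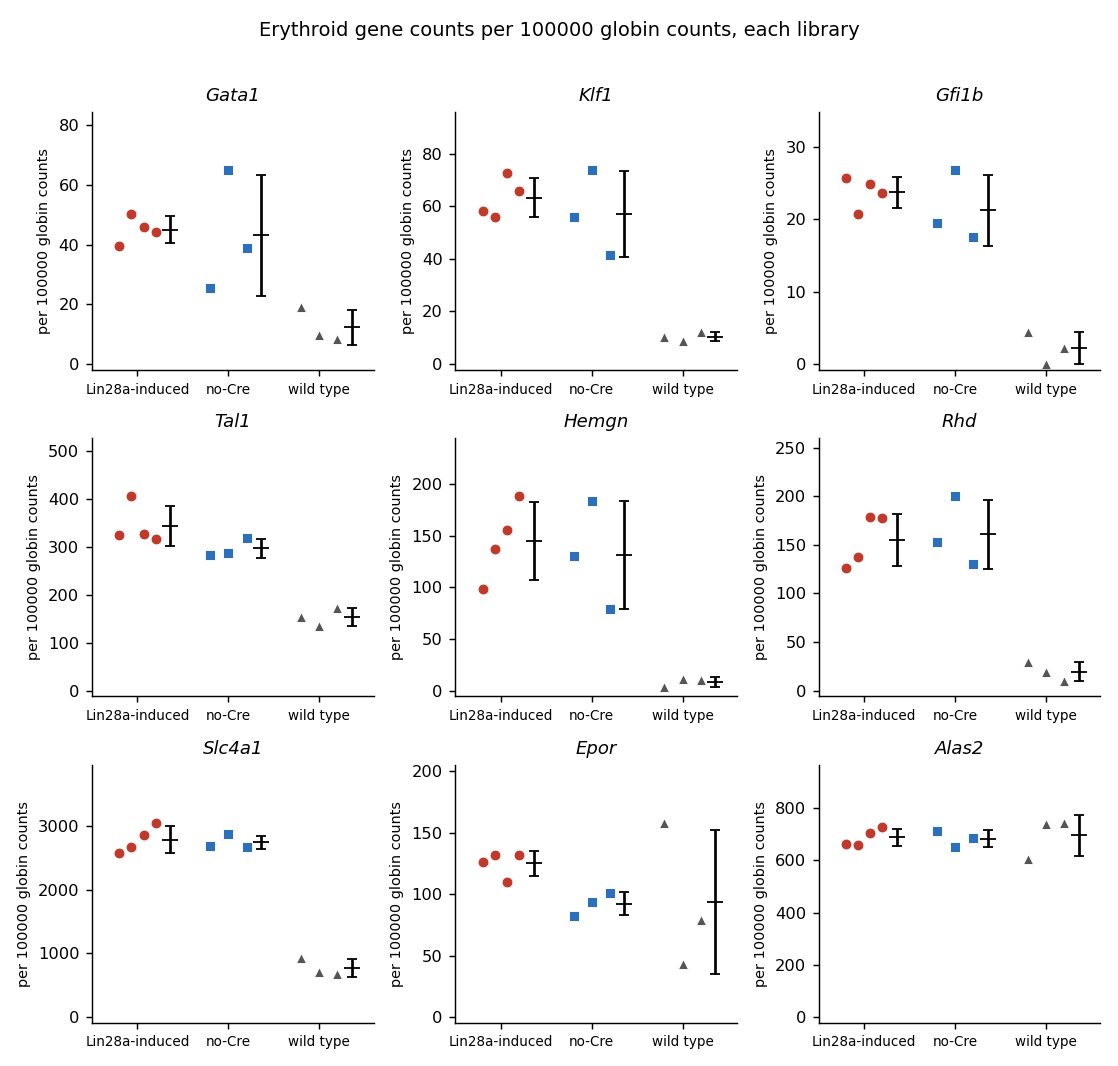
Counts of each of the 9 genes per 100000 globin counts (linear axis from 0, 1 panel per gene) in every library, Lin28a-induced at the left, then no-Cre, then wild type, with the mean and SD of each group drawn in black beside its points. Alas2 lies between 606 and 744 in all 10 libraries, and the wild-type libraries lie lower for every gene but Alas2 and Epor. Gfi1b in wild-type replicate 2 is 0.

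With library sizes set to the globin counts in edgeR, 6 genes passed as higher over wild type in each comparison and 0 as lower. Of all tested genes, 1.96% were higher and 3.65% lower on that scale for Lin28a-induced over wild type, and 1.02% higher and 8.25% lower for no-Cre over wild type. For Lin28a-induced over wild type the log2 fold changes were 1.93 for Gata1, 2.61 for Klf1, 3.75 for Gfi1b, 4.02 for Hemgn, 3.04 for Rhd and 1.86 for Slc4a1, with adjusted p from 1.43e-10 (Hemgn) to 0.0122 (Gata1). For no-Cre over wild type they were 1.87, 2.47, 3.60, 3.88, 3.10 and 1.83 in the same order, with adjusted p from 1.83e-09 (Hemgn) to 0.0174 (Gata1). Tal1 (1.17, adjusted p = 0.130) and Epor (0.44, adjusted p = 0.985) no longer passed for Lin28a-induced, nor did Tal1 (0.96, adjusted p = 0.188) and Epor (0.00, adjusted p = 0.998) for no-Cre. Alas2 was at -0.02 and -0.03. For Lin28a-induced over wild type the SE on this scale was 0.44 for Alas2 and 0.45 for Tal1. Yet Alas2 per globin count had a coefficient of variation of 6.52% over all libraries, and the Tal1 ratios did not overlap those of wild type. The p-values on this scale thus do not measure the spread of each gene alone, for calls kept as for calls lost. The median of all genes was -0.09 and -0.66 on this scale, so the no-Cre values stand against a lower background.

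The globins themselves also differed in make-up, in more than one direction. Hbb-bh1, an embryonic beta-like globin of early primitive cells, was 9.10 to 10.6% of the counts of Hbb-y, the main embryonic one, in the Lin28a-induced libraries, 8.41 to 11.7% in the no-Cre libraries and 1.62 to 1.96% in the wild-type libraries. Hbb-bs, an adult beta globin, was 0.849 to 1.60% of Hbb-y in the Lin28a-induced libraries, 0.870 to 1.35% in the no-Cre libraries and 5.74 to 7.87% in the wild-type libraries. Wild-type libraries thus held less Hbb-bh1 and more Hbb-bs for each Hbb-y count, without overlap, beside their lower Slc4a1, Klf1 and Hemgn. Hbb-bt, the near-identical neighbour of Hbb-bs, was 2.24 to 2.45% of Hbb-y in the Lin28a-induced, 2.25 to 2.43% in the no-Cre and 2.26 to 3.12% in the wild-type libraries, which overlap. Hba-x, the embryonic alpha-like globin, was 25.7 to 31.5% of Hbb-y in the Lin28a-induced, 23.1 to 30.2% in the no-Cre and 8.04 to 8.54% in the wild-type libraries. The adult alpha globin Hba-a2 went against Hbb-bs, with 3995, 3100, 4783 and 5067 counts in the Lin28a-induced libraries, 8982, 5934 and 4187 in the no-Cre libraries and 0, 17 and 9 in the wild-type libraries. Its log2 fold change over wild type was 8.41 ± 0.49 (adjusted p = 5.24e-06) for Lin28a-induced and 8.98 ± 0.50 (adjusted p = 5.86e-06) for no-Cre. Hba-a2 shares reads with its near-identical copy Hba-a1, so the counts of either are uncertain, and Hba-a1 was 7.33 to 8.22% of Hbb-y in the Lin28a-induced, 7.28 to 7.57% in the no-Cre and 11.5 to 13.3% in the wild-type libraries. Hba-a1 and Hba-a2 added together were 10.9 to 12.4% of Hbb-y in the Lin28a-induced, 10.78 to 11.48% in the no-Cre and 11.49 to 13.3% in the wild-type libraries. Hbb-bs and Hbb-bt added together were 3.09 to 3.88% of Hbb-y in the Lin28a-induced and 3.12 to 3.78% in the no-Cre libraries. In the wild-type libraries they were 8.01 to 10.8%, above all others. Added by pairs, the adult beta globin counts were thus higher per Hbb-y count in wild type, and this lay in Hbb-bs, as Hbb-bt overlapped. Hbb-bs and Hbb-bt are near-identical too, and Hbb-b1 and Hbb-b2 were not among the genes counted. How strain or read alignment bears on these beta globin counts was not tested. The summed adult alpha globins of the wild-type libraries overlapped those of the Lin28a-induced libraries.

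**Figure D4:**
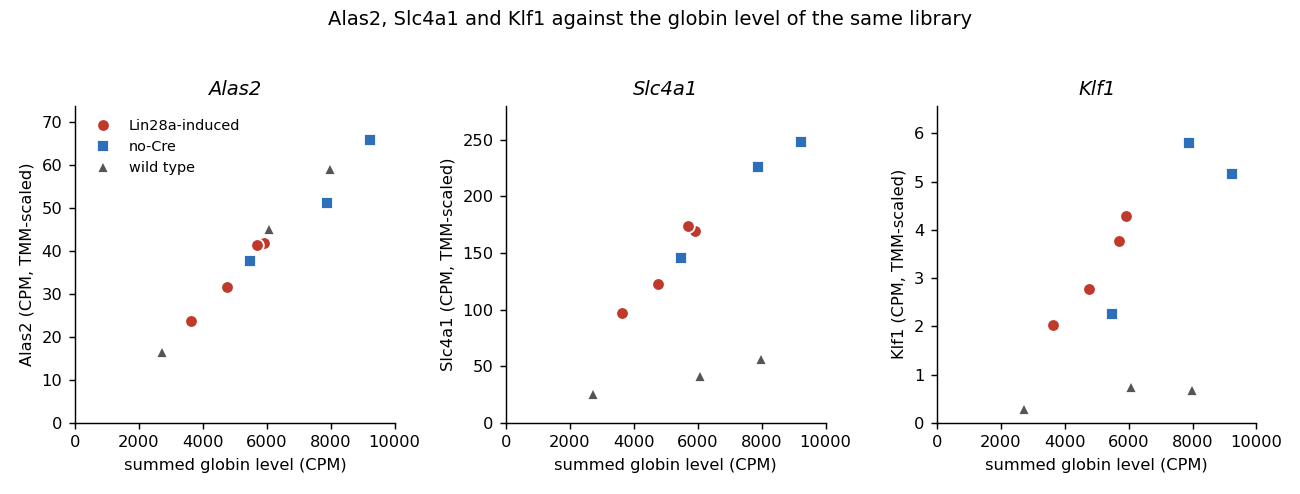
Scaled counts of Alas2, Slc4a1 and Klf1 (CPM, 1 panel each) against summed globin CPM of the same library, on linear axes from 0, with 1 point for each of the 10 libraries and a colour and shape for each group. The Alas2 points of all groups fall close to 1 line, and the wild-type points of Slc4a1 and Klf1 lie below those of the other 7 libraries.

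Per kilobase of exon sequence the order of levels differed between the groups. In the Lin28a-induced libraries Slc4a1 stood highest at 28.7 ± 7.65 CPM per kb (SD, n = 4), then Alas2 at 14.4 ± 3.61, Rhd at 4.97 ± 1.79, Tal1 at 3.85 ± 0.498, Epor at 3.12 ± 0.571, Hemgn at 2.94 ± 1.21, Klf1 at 2.10 ± 0.66, Gata1 at 0.918 ± 0.185 and Gfi1b at 0.655 ± 0.171. The ranges of neighbours in this order overlapped from Rhd down to Klf1. Those of Gata1 and Gfi1b overlapped too, though Gata1 was above Gfi1b within each library. The no-Cre libraries had the same order except that Hemgn, at 4.09 ± 2.11, stood above Epor, at 3.43 ± 0.568 (SD, n = 3), within their spread. In the wild-type libraries Alas2 was first at 16.7 ± 9.04 and Slc4a1 next at 8.35 ± 3.19 (SD, n = 3). Their ranges overlap, though Alas2 was above Slc4a1 within each wild-type library. Epor followed at 2.10 ± 0.338 and Tal1 at 1.92 ± 0.849. Rhd (0.605 ± 0.298), Klf1 (0.371 ± 0.164), Gata1 (0.245 ± 0.0616), Hemgn (0.214 ± 0.166) and Gfi1b (0.0468 ± 0.0409) were the lowest there.

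Libraries of 1 group varied more in some of the genes than in others. In CPM the coefficient of variation in the Lin28a-induced libraries ran from 12.9% (Tal1) to 41.2% (Hemgn), in the no-Cre libraries from 16.6% (Epor) to 52.2% (Gata1) and in the wild-type libraries from 16.1% (Epor) to 87.3% (Gfi1b, at 0 to 3 counts). After group means were subtracted, the correlation of log2 CPM with summed globin was 0.961 for Tal1, 0.959 for Slc4a1, 0.947 for Hemgn and 0.900 for Klf1, against 0.649 for Rhd, 0.469 for Gata1, 0.287 for Epor and -0.15 for Gfi1b. Both measures of a library share its depth, so these too are descriptions over 10 libraries.

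The genes whose levels were most like the mean of the 9 over all 10 libraries were ranked by Pearson correlation of log2 CPM with the mean standardised value of the 9 genes. The first 10 were Hbb-bh1 (0.995), the beta spectrin gene Sptb (0.994), Nfe2 (0.990), Trim10 (0.986), Slc39a8 (0.984), Hba-x (0.983), Epb4.2 (0.982), Ank1 (0.979), Kel (0.979) and Smap1 (0.978). Among the 9 genes the correlation with that mean, which each gene is part of, was 0.995 for Klf1 and lowest, at 0.541, for Alas2. After group means were subtracted, the integrin gene Itgb3 came first (0.989), then Sptb (0.967) and Hbb-bh1 (0.960), with the platelet genes Itga2b (0.952) and Tubb1 (0.951) among the first 10.

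Partner and other blood transcription factors moved over wild type with the 5 regulators, though not all of them. Of 16 tested, 9 passed as higher and 2 as lower for Lin28a-induced (median log2 fold change 0.54), and 9 as higher and 1 as lower for no-Cre (median 0.50). These counts, and those of the lists that follow, stand against 24.3% higher and 25.0% lower among all tested genes for Lin28a-induced over wild type, and 21.0% higher and 21.4% lower for no-Cre over wild type. Nfe2, whose protein activates globin genes, was at 5.29 CPM in the Lin28a-induced, 7.36 CPM in the no-Cre and 1.36 CPM in the wild-type libraries on average, with log2 fold changes over wild type of 1.97 ± 0.27 (adjusted p = 6.43e-05) for Lin28a-induced and 2.45 ± 0.28 (adjusted p = 2.02e-05) for no-Cre. Trim58, a ubiquitin ligase of late red cells, had 2.25 ± 0.35 (adjusted p = 0.000144) and 2.98 ± 0.35 (adjusted p = 2.18e-05), and Ikzf1, a factor of many blood lineages, 1.60 ± 0.21 (adjusted p = 3.38e-05) and 1.76 ± 0.22 (adjusted p = 3.11e-05), for Lin28a-induced and no-Cre over wild type.

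The red cell membrane and skeleton list, to which Slc4a1 and Rhd are neighbours in function, had 12 of 18 tested genes higher and 2 lower over wild type in each of the Lin28a-induced and no-Cre groups, with medians of 0.91 and 1.40. Ermap, an erythroid membrane protein gene, had a log2 fold change of 3.001 ± 0.32 (adjusted p = 5.5e-05) for Lin28a-induced and 3.56 ± 0.33 (adjusted p = 3.34e-05) for no-Cre. Add2, the beta adducin gene of the membrane skeleton, had 2.54 ± 0.22 (adjusted p = 1.19e-06) and 3.09 ± 0.23 (adjusted p = 3.96e-07). Slc2a1, the glucose transporter that most cells also make, went the other way at -0.64 ± 0.05 (adjusted p = 6.4e-07) and -0.62 ± 0.06 (adjusted p = 2.42e-06). Other genes of heme and iron handling, the pathway of Alas2, were split, with 6 of 15 higher and 2 lower for Lin28a-induced (median 0.01) and 5 higher and 2 lower for no-Cre (median 0.12), not far from the shares of all genes. Ppox, a late enzyme of heme synthesis, was higher at 0.65 ± 0.11 (adjusted p = 0.000288) and 0.56 ± 0.12 (adjusted p = 0.00162), and Alad, the enzyme after Alas2, was lower at -0.47 ± 0.08 (adjusted p = 0.000309) and -0.45 ± 0.09 (adjusted p = 0.00104). Other tissues use both enzymes.

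Of 10 tested genes of erythropoietin signalling, the pathway of Epor, 4 were higher and 2 lower for Lin28a-induced over wild type and 5 were higher and 1 lower for no-Cre over wild type. The kinase gene Jak2 was higher by 0.33 ± 0.06 (adjusted p = 0.000954) and 0.28 ± 0.07 (adjusted p = 0.00581) on the log2 scale. Cish, an inhibitor that the pathway switches on, was lower at -0.59 ± 0.14 (adjusted p = 0.00364) and -0.67 ± 0.15 (adjusted p = 0.00337). Of 10 tested red cell enzyme and late marker genes, 2 were higher and 3 lower in the Lin28a-induced and 2 higher and 2 lower in the no-Cre libraries than in wild type. With 10 genes each, the counts of the last 2 lists lie within a few genes of the shares of all genes (24.3% higher and 25.0% lower for Lin28a-induced, 21.0% and 21.4% for no-Cre), and nothing is read from them. With Lin28a-induced set against no-Cre, 1 gene of all these red cell lists passed, from lists of 16, 18, 15, 10 and 10 tested genes. Of all tested genes, 1.76% passed as higher and 1.15% as lower there, so nothing about the lists is read from it. The gene was Hebp1, a heme-binding protein gene, which was lower at -0.58 ± 0.08 (adjusted p = 0.00156). Hebp1 was lower still against wild type, at 8.11 CPM in the Lin28a-induced, 12.1 CPM in the no-Cre and 44.1 CPM in the wild-type libraries.

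Markers of other cell types were counted in the same way, beside the 24.3% of all genes higher and 25.0% lower for Lin28a-induced over wild type, and the 21.0% and 21.4% for no-Cre over wild type. Of 9 tested platelet and megakaryocyte genes, which share Gata1, Gfi1b and Tal1 with red cells, 5 were higher in the Lin28a-induced and 3 in the no-Cre libraries and 0 were lower, and their summed level was 12.2 to 33.9 CPM in the Lin28a-induced, 10.6 to 24.2 CPM in the no-Cre and 6.04 to 17.8 CPM in the wild-type libraries. Of 11 macrophage genes, 8 were higher and 0 lower in the Lin28a-induced and 3 higher and 1 lower in the no-Cre libraries, with sums of 92.8 to 115 CPM, 73.4 to 95.6 CPM and 38.4 to 73.5 CPM in the Lin28a-induced, no-Cre and wild-type libraries. The platelet and macrophage counts in the no-Cre libraries lie near the shares of all genes. The mast cell genes, another lineage that uses Gata1, summed to 0.198 to 0.523 CPM in the Lin28a-induced, 0.480 to 0.804 CPM in the no-Cre and 1.23 to 3.44 CPM in the wild-type libraries, and 1 of them was tested, Cpa3, which was lower than in wild type. Among the mast cell genes, Mcpt8 was at 0 in all Lin28a-induced libraries, Mcpt8, Tpsb2 and Fcer1a at 0 in all no-Cre libraries and Tpsb2 and Fcer1a at 0 in all wild-type libraries. The part of endothelial, platelet and macrophage cells in the differences of Gata1, Gfi1b, Tal1 and Epor was not tested.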

How the data were processed

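Raw counts per gene symbol were deposited by the authors as 1 table with a column for each of the 10 libraries. Per the labels' protocols, RNA from the Qiagen Micro RNeasy kit went into NEB Ultra Directional libraries read as single 75-base reads on a NextSeq 500. The submitters' processing notes name STAR 2.3.1z4, featureCounts, DESeq2 and mm10. The annotation and the handling of strand and of multiply aligned reads are not given in the sources at hand. Total counts ran from 21762668 to 39517946 per library.

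After filterByExpr and TMM scaling, edgeR 4.0.16 (glmQLFit robust, glmQLFTest) was fitted to all 10 libraries in 3 groups, with Benjamini-Hochberg adjustment over 16340 genes and a threshold of 0.05. The SE was taken as the size of the log2 fold change over the root of its F statistic, and 95% intervals use the t distribution of the fit. CPM use TMM-scaled library sizes, and log2 CPM for correlations a prior count of 1. The test was also run on simulated counts in which few genes differed, unlike the comparisons with wild type. Nothing is read from that run here. The 9 genes and the gene lists were chosen with earlier results of these data known. The text names all 9, the globins, the genes most alike in level, and from each list genes among the 4 with the smallest p past the threshold. Globin counts are the sum over 8 genes, and Hba-a2 shares reads with its near-identical copy Hba-a1. Alternatives were DESeq2 1.42.0, DESeq2 size factors in edgeR, limma-voom (limma 3.58.1), no filter, only the groups compared, a sex covariate, no globin genes, a globin covariate, a replicate block and leaving out each library. Levels per globin count were also taken per count of the embryonic globins only. Globin-scaled library sizes were added after the data were seen. GENCODE M21 gave positions and exon lengths, and RefSeq the promoter windows. R 4.3.3, Python 3.11.15, pandas 2.3.3, numpy 2.4.6 and matplotlib 3.10.9 were used.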

Additional observations from a re-analysis of the deposited data

Results flagged for a closer look

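Tal1 per 100000 globin counts had 1 Lin28a-induced library apart from the other 3. Replicate 3 gave 404 counts, against 315 to 326 in replicates 2, 4 and 5, and this gap was 0.872 of the whole range of the group. The level was picked out because of this gap, and groups of 4 libraries can show such a gap by chance. The same library had the fewest globin CPM of its group, at 3626, and its Tal1 level of 14.7 CPM was the lowest of the 4. What sets it apart was not tested.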

How the results depend on the processing

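The number of the 9 genes past the threshold stayed at 0 between the Lin28a-induced and no-Cre groups in every setting run. Over wild type it stayed at 8 except for 6 with globin-scaled library sizes (both comparisons), 7 under the replicate block, and 7 in the Lin28a-induced comparison without Lin28a-induced replicate 5 or wild-type replicate 2. The count over all genes moved more. For Lin28a-induced against no-Cre it was 476, with 303 under the sex covariate, 982 in DESeq2, 1791 with only the groups compared, 3 with globin-scaled sizes and 104 to 1482 when libraries were left out, the extremes being without no-Cre replicate 7 and wild-type replicate 2. Lin28a-induced against wild type gave 8050, with 917 for globin-scaled sizes and 3596 for the replicate block, and no-Cre against wild type gave 6938, with 1514 for globin-scaled sizes. The block has fewer samples; the cause of the other shifts was not tested.

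The block could be fitted to replicates 2 and 3 of the Lin28a-induced and wild-type groups only. Their deviations correlated at -0.03 and -0.07 in same-numbered pairs, and at -0.02 and 0.13 in pairs of unlike number. The labels do not say that a number is shared, so the main fit did not treat the libraries as paired. So few correlations cannot show whether they were. Under the block Tal1 (0.51, adjusted p = 0.0679) and Epor (0.40, adjusted p = 0.384) did not pass and Alas2 passed as lower (-0.92, adjusted p = 1.16e-05).

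Signs turned for Lin28a-induced over no-Cre with the globin covariate in Klf1 (0.33), Tal1 (0.10), Hemgn (0.68), Rhd (0.00044) and Alas2 (0.11), and with globin-scaled sizes in Gata1 (0.063), Klf1 (0.15), Gfi1b (0.15), Tal1 (0.21), Hemgn (0.14), Slc4a1 (0.024), Epor (0.44) and Alas2 (0.010). Alas2 over wild type ran from -0.59 to 0.18 for Lin28a-induced when 1 library was left out, the positive value being without wild-type replicate 2. For no-Cre it ran from -0.0083, without wild-type replicate 1, to 0.76, and turned to -0.11 with the globin covariate and -0.028 with globin-scaled sizes. No value in this paragraph passed the threshold. At 0 to 22 wild-type counts, depth limits the size of the Gfi1b and Hemgn differences.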
